A study of Mus musculus with 6 samples.

Results

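The core spliceosome, SR and hnRNP genes of mouse gastrocnemius muscle described here are all entries of the deposited gene table whose symbol starts with Srsf, Hnrnp, Hnrp, Sf3a, Sf3b, Snrp or U2af, with Snrpn left out, which gave 53 of 23367 entries. They fall into 11 SR genes, 20 hnRNP genes, 11 genes of the U2 snRNP and U2AF (U2 factors) and 11 genes of Sm and other snRNP proteins. The rule rests on names alone, and all 53 genes passed the filter on low counts.

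Pre-mRNA splicing is carried out by the spliceosome, a machine of small nuclear ribonucleoproteins (snRNPs) and many further proteins that removes introns and joins exons. Most snRNPs are built around a ring of Sm proteins on a small nuclear RNA. The U2 snRNP, with its SF3A and SF3B subcomplexes, recognises the branch point, and the U2AF heterodimer recognises the 3′ splice site. SR proteins carry a domain rich in arginine and serine and mostly favour exon inclusion, while heterogeneous nuclear ribonucleoproteins (hnRNPs) coat nascent RNA and often oppose it. Changes in the balance of these factors are known to shift alternative exons during muscle maturation.

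RNA came from gastrocnemius muscle of wild type FVB mice, in 6 polyA libraries: 1 at embryonic day 18.5 (E18.5, males and females pooled), 1 at postnatal day 2 (PN2, pooled males), 2 at PN14, 1 at PN28 and 1 from an adult of 22 weeks, each of the last 4 from a single male. Between 125402932 and 157868359 counts fell on genes in a library. Per the column names each library was run on its own lane, so lane and stage cannot be told apart. Only PN14 has replicates, so every p-value below takes the spread of that pair as the spread at all stages. Pooled animals also average out differences between mice at the earliest stages only, and in whole muscle fewer cells of a type and less RNA per cell cannot be told apart. The summed level of 6 myofibre genes (Acta1, Ckm, Des, Ttn, Neb and Tnnt3) was 14947 scaled FPKM at E18.5, 16913 at PN2, 90796 and 59977 at PN14, 105878 at PN28 and 108461 in adult muscle. These defining genes of muscle fibres were thus present at every stage. Their sum was higher in all 4 later libraries, opposite in direction to most of the splicing genes below. By edgeR's test, described below, 0 of the 6 passed from PN2 to PN14 or from E18.5 to adult. Of all genes tested, 16.6% and 27.4% rose in these comparisons. The part of the myofibre genes in the results below was not tested.

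Levels are given as scaled FPKM, which is the deposited FPKM (fragments on a gene scaled to transcript length and library size) divided by the library's TMM factor, a correction for the large share of reads that a few muscle genes take. This factor was 1.452 at E18.5 and 1.452 at PN2, 0.8412 and 1.006 at PN14, 0.7851 at PN28 and 0.7136 in adult muscle. Without it the 53 genes took 0.752% of all counts at E18.5, 0.69% at PN2, 0.333% and 0.421% at PN14, 0.3% at PN28 and 0.272% in adult muscle. A gene passed the test where edgeR's quasi-likelihood test, fitted over 16882 genes, gave an adjusted p (Benjamini-Hochberg) under 0.05. Fold changes are fitted log2 values with a standard error (SE).

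Between E18.5 and adult, most of these genes were lower at the later stage, although by modest factors. Of the 53, 20 fell, 1 rose and 32 did not pass. The share that fell, 37.7%, compares with 27.4% of all genes tested, and the share that rose, 1.89%, with 27.4%. The median log2 fold change of the 53 genes was -0.47, against -0.05 over all genes tested. By the stricter call of at least a 2-fold change, 8 fell (15.1%, against 23.6% of all genes) and 1 rose (1.89%, against 21.4%). The middle values were packed closely: the quartiles of the members were -0.94 and -0.07 and those of all genes -1.30 and 0.95, and 44 of the 53 (83%) lay within 2-fold, against 46.5% of all genes.

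The subgroups differed in how far their medians moved from E18.5 to adult. The SR genes had a median log2 fold change of -0.86, with 6 of 11 falling (54.5%). The hnRNP genes had -0.45, with 7 of 20 falling (35%). The U2 factors had -0.33, with 4 falling (36.4%) and 1 rising (9.09%). The Sm and snRNP genes also had -0.33, with 3 of 11 falling (27.3%). Of all genes tested 27.4% fell and 27.4% rose, so the falling share of the Sm and snRNP genes was level with that of all genes. These medians and shares are descriptions, and differences between the subgroups were not tested.

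**Figure D1:**
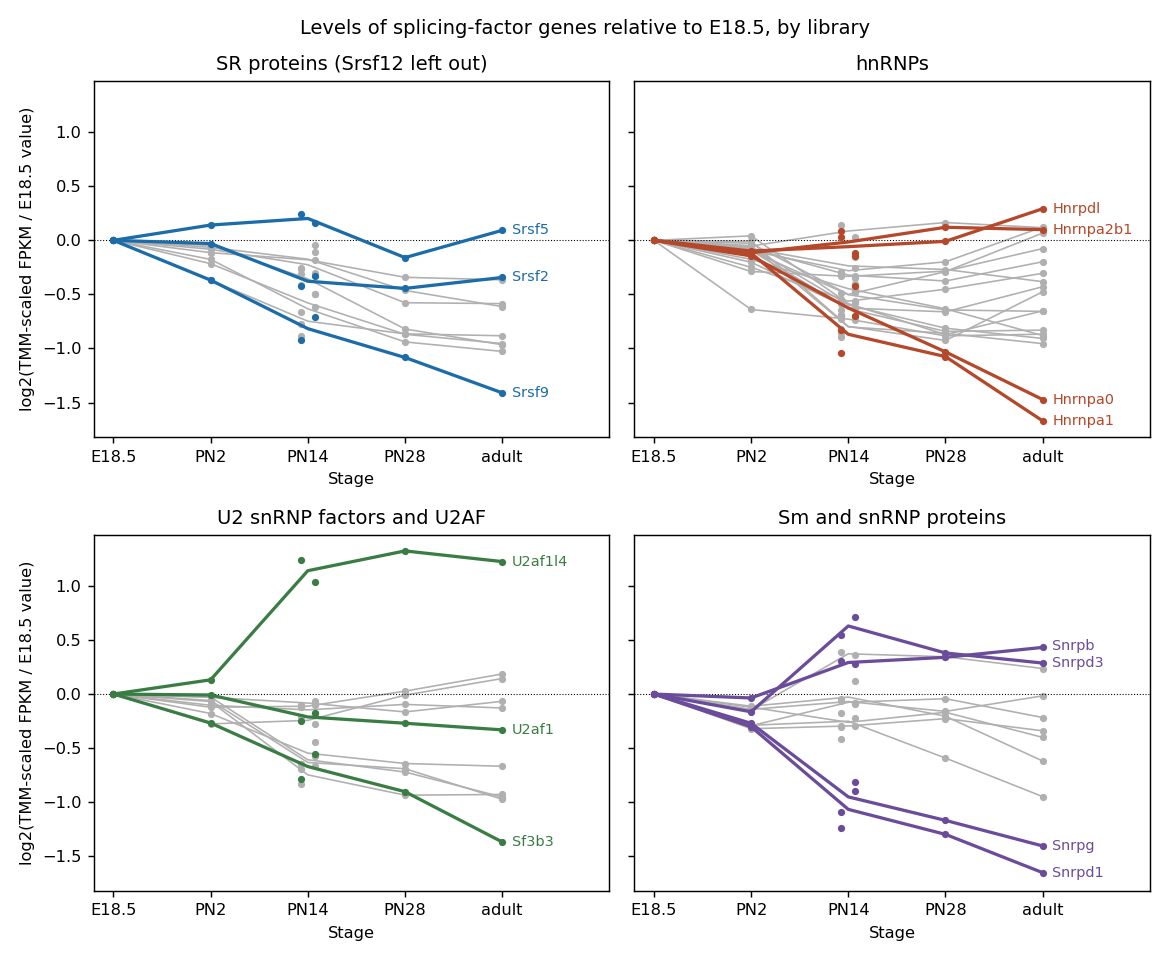
The y axis gives log2 of the scaled FPKM relative to the E18.5 library, and the x axis the 5 stages, with a line per gene (through the mean at PN14) and a point per library. Most lines end below 0 in the adult, U2af1l4 stands alone above 1 in the U2 panel, and the Sm panel fans out in both directions. Srsf12 is left out because it had at most 206 counts.

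From PN2 to PN14, the interval in which most genes of the whole table moved, 8 of the 53 genes fell and 2 rose. The share that fell, 15.1%, was level with the 15% of all genes that fell, while the share that rose was 3.77%, against 16.6% of all genes. The genes that fell were Hnrnpa1, Hnrnpd, Hnrnpr, Sf3a3, Sf3b4, Snrpd1, Snrpg and Srsf12, and those that rose were Snrpd3 and U2af1l4. Median log2 fold changes were -0.35 for the SR genes, -0.36 for the hnRNP genes, -0.20 for the U2 factors and 0.08 for the Sm and snRNP genes, against -0.01 for all genes tested. Without PN14 replicate 1 the distance of the Sm and snRNP median from that of all genes went from 0.09 to 0.21. DESeq2's Wald test kept 5 of the 10 calls (Hnrnpa1, Hnrnpd, Hnrnpr, Snrpd3 and U2af1l4), and the newer form of edgeR's quasi-likelihood fit kept 6 (Srsf12, Hnrnpd, Hnrnpr, Sf3b4, Snrpd3 and U2af1l4).

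None of the 53 genes passed in the other intervals. From E18.5 to PN2 the edgeR test found 0 members, while 0.0178% of all genes rose and 0.0118% fell. At an unadjusted p under 0.05 it found 2 of the 53, against 1121 of 16882 genes tested. From PN14 to PN28 it found 0 members, while 0.0178% of all genes rose and 0% fell. The unadjusted p was under 0.05 for 1 of the 53, against 1420 of 16882 genes tested. From PN28 to adult it found 0 members, while 0.16% of all genes rose and 0.361% fell. Here 0 of the 53 had an unadjusted p under 0.05, against 3091 of 16882 genes tested. edgeR's exact test and DESeq2's Wald test also found 0 members in each of these 3 intervals. From E18.5 to PN2, the exact test found 1.16% of all genes rising and 0.906% falling, and the Wald test 0.711% and 0.267%. From PN14 to PN28 these shares were 0.989% and 0.539%, and 0.486% and 0.32%. From PN28 to adult they were 1.86% and 5.43%, and 1.01% and 3.81%. The fitted value was lower at PN2 than at E18.5 for 50 of the 53 genes (94.3%, against 51.6% of all genes tested), with a median log2 fold change of -0.12 against -0.01.

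**Figure D2:**
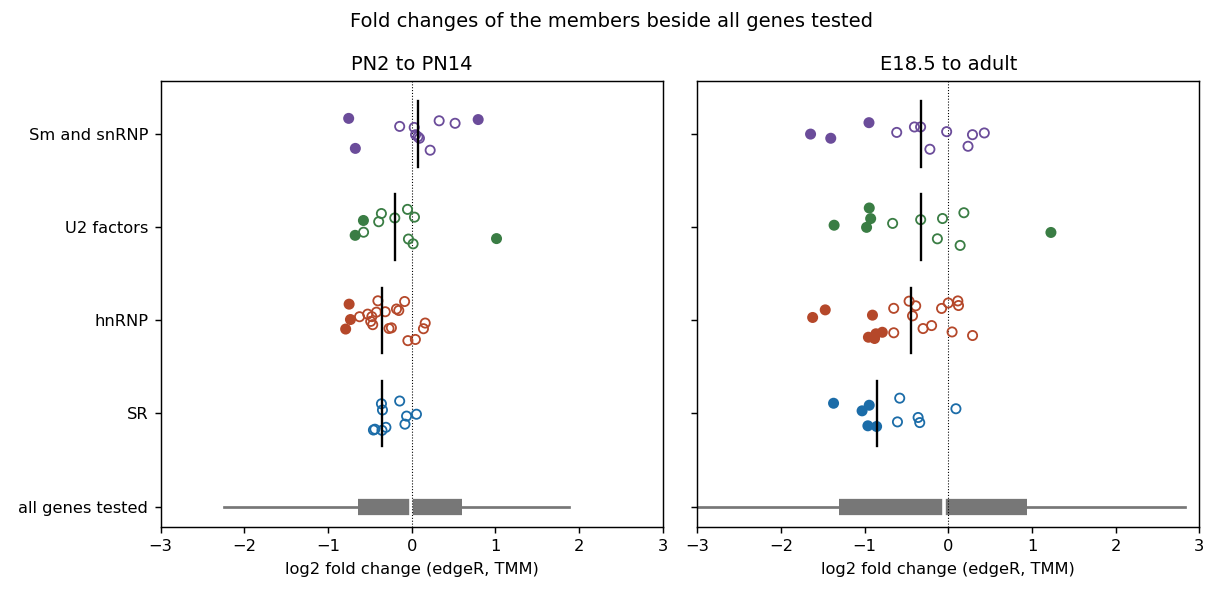
The x axis gives fitted log2 fold changes from PN2 to PN14 (left) and from E18.5 to adult (right), with a point per member by subgroup (Srsf12 not drawn), filled where the adjusted p was under 0.05, and a black line at the subgroup median. The grey bar spans the quartiles of all genes tested with a gap at their median, and its line runs from the 5th to the 95th percentile, to -3 where it is lower. In the right panel the SR median lies at -0.86, while 1 filled point, U2af1l4, lies to the right of 0.

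The scaling between libraries decides how large this fall looks. With library size alone in place of TMM, the median of all genes tested shifted to -0.66 from PN2 to PN14 and to -1.08 from E18.5 to adult, and the members' median to -0.90 and -1.49. In that scaling 32 members fell from PN2 to PN14 with 0 rising, and 46 fell from E18.5 to adult with 0 rising. Of all genes tested, 35.2% fell and 6.26% rose from PN2 to PN14 in the same scaling. From E18.5 to adult, 47.6% of all genes fell and 8.88% rose. The 8 and 20 genes that fell with TMM also fell with library size alone. Because that scaling lowers later values of genes in general, this agreement is no check on the falls. The rise of Snrpd3 from PN2 to PN14 passed with TMM alone. U2af1l4 was higher under both scalings in both comparisons, but also passed with TMM alone. Apart from it, all members were lower in the adult than at E18.5 with library size alone, and apart from it and Snrpd3 all were lower at PN14 than at PN2, so higher or level later values given below for genes such as Hnrnph2, Hnrnpa2b1, Srsf5, Sf3b1, Sf3b2, Snrpb and Snrpc hold with TMM scaling only.

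Libraries before and after the first postnatal days separated for many members. With TMM scaling, the E18.5 and PN2 values lay above all 4 later libraries for 31 of 53 genes (58.5%, against 34.8% of all genes) and below all of them for 5 (9.43%, against 32.9%). The 5 were Hnrnph2, U2af1l4, Snrpb, Snrpc and Snrpd3. With library size alone the counts were 51 above (96.2%, against 61.7%) and 1 below, U2af1l4 (1.89%, against 12.5%). Within PN14, replicate 2 was the higher library for 41 of the 53 genes in scaled FPKM, with a median log2 difference of 0.12 from replicate 1, against 0.01 over all genes tested.

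Markers of other cells moved over the same stages. The summed level of 10 proliferation genes, such as Mki67 and Top2a, was 156 scaled FPKM at E18.5, 102 at PN2, 22.7 and 47.1 at PN14 (replicates 1 and 2), 25.1 at PN28 and 1.21 in adult muscle, and all 10 fell in both comparisons. Satellite cell genes (4) summed to between 11.3 in the adult and 50.7 at E18.5, and erythroid genes (5) to between 518 and 5800. Fibroblast genes (5) summed to between 613 and 3038, and bone and cartilage genes (5) to between 0.266 and 75.6. Each of these sums was lowest in the adult and highest at E18.5. The fibroblast sum at E18.5 held 1409 from Col1a1 and 1260 from Col3a1. From E18.5 to adult 4 of the 5 fibroblast genes fell (80%, against 27.4% of all genes). Dcn went from 271 to 461 without passing (log2 fold change 0.75, adjusted p = 0.152, edgeR). Endothelial genes (4) summed to between 74.7 and 206, macrophage genes (4) to between 11.8 and 19.7, Schwann cell genes (4) to between 153 and 1162, and adipocyte genes (4) to between 0.998 and 126. PN14 replicate 2 stood apart in the Schwann cell genes, with 1162 against 379 in replicate 1 and at most 395 in any other library, and was also the highest library for the endothelial genes, with 206 against 160 in replicate 1. No listed marker in the table was at 0 in all libraries. The part of these cells in the levels of the splicing genes was not tested.

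Promoter sequences are shown for members that fell and members that rose, because genes moved in both directions within 1 complex. RefSeq promoter sequence, from 250 bases before to 50 after the start in GRCm38.p6, was at hand for 45 of the 53 genes. The ETS-type motif CCGGAAG, read on both strands, was present in 15 of them (33.3%). This compares with 16.5% of 12309 genes tested with a promoter sequence and 9.93% of all 27025 genes in the promoter table. The subgroups differed, with 4 of 11 SR genes (36.4%) and 2 of 17 hnRNP genes (11.8%). The U2 factors had 5 of 8 (62.5%) and the Sm and snRNP genes 4 of 9 (44.4%). The GC box GGGCGG was present in 71.1% of members and 63.3% of genes tested, CCAAT in 51.1% and 41.9%, and TATAAA in 13.3% and 9.99%. The ETS-type motif was found in 6 of the 18 genes with a promoter sequence that fell from E18.5 to adult and in 9 of the 26 that did not pass. From PN2 to PN14 it was found in 3 of the 6 that fell (Hnrnpd, Sf3a3 and Snrpg), in 0 of the 2 that rose and in 12 of the 37 that did not pass. The sequences printed are examples and not a comparison of falling with rising genes. A match describes letters in a window and is not evidence of binding. In the sequences below, capitals mark this motif or its reverse complement CTTCCGG.

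Snrpg and Sf3a3, which fell, hold 1 copy each, at chr6:86371290-86371589 and chr4:124714611-124714910, both on the plus strand of GRCm38.p6.
Snrpg: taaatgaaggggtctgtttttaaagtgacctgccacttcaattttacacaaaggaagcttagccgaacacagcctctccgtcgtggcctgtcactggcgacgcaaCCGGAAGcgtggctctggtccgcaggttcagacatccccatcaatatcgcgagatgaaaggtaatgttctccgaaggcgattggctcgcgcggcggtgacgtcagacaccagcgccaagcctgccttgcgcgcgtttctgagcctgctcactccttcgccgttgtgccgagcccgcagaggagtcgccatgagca
Sf3a3: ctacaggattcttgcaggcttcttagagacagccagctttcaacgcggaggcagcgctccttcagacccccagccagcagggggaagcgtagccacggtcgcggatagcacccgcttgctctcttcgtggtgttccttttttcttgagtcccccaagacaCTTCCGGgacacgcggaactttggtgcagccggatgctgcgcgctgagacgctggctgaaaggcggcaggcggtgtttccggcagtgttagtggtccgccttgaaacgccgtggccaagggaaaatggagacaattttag

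Snrpd3 and U2af1l4, which rose from PN2 to PN14, hold 0 copies in this window, at chr10:75517792-75518091 and chr7:30563090-30563389, both on the plus strand of GRCm38.p6.
Snrpd3: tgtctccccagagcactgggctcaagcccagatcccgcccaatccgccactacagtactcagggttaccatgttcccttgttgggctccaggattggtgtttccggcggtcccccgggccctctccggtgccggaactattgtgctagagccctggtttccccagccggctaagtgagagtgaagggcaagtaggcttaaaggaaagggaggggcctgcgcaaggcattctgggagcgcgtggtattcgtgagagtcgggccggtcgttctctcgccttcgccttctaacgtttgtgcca
U2af1l4: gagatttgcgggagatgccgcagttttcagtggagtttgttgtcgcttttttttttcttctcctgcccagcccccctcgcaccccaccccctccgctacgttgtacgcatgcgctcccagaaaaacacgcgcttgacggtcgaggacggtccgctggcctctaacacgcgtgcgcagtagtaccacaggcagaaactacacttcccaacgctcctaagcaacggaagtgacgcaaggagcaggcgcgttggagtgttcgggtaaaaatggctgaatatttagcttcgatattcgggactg

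Among SR genes, the most abundant was Srsf5. It had 57.3 scaled FPKM at E18.5, 63.2 at PN2, 67.8 and 64.1 at PN14, 51.3 at PN28 and 61.1 in adult muscle. The groups overlapped, with log2 fold changes of 0.06 (SE 0.19) from PN2 to PN14 and 0.09 (SE 0.22) from E18.5 to adult (adjusted p = 0.834 and 0.741, edgeR). With library size alone it fell from E18.5 to adult (-0.93, adjusted p = 0.0199, edgeR), by less than the shift of the median of all genes in that scaling. Srsf5 made up 16.2% of the summed SR FPKM at E18.5 and 25.6% in the adult. Such a share does not depend on the scaling between libraries.

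Srsf3, the smallest SR protein and a regulator of its own splicing, was lower at the later stages. Its levels were 58.3 scaled FPKM at E18.5, 51.6 at PN2, 34.2 and 41.3 at PN14, 30.4 at PN28 and 28.6 in adult muscle. Every later library lay below both early ones, and the log2 fold change from E18.5 to adult was -1.03 (SE 0.25, adjusted p = 0.0172, edgeR). At E18.5 the level of Srsf3 was close to that of Srsf5, with a Srsf5 to Srsf3 FPKM ratio of 0.984, and in the adult the ratio was 2.14.

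Srsf9 had the largest fall among well expressed SR genes. It had 23.1 scaled FPKM at E18.5, 17.9 at PN2, 12.2 and 14.1 at PN14, 10.9 at PN28 and 8.69 in adult muscle, a log2 fold change of -1.37 (SE 0.22, adjusted p = 0.00435, edgeR) over the whole course. Srsf7, a zinc-knuckle SR protein, had 30.6 at E18.5, 23.7 at PN2, 16.6 and 20 at PN14, 16.8 at PN28 and 16.6 in adult muscle. Its 4 later libraries lay close together below the early ones, and the fall from E18.5 to adult passed (log2 fold change -0.86, SE 0.22, adjusted p = 0.0203, edgeR).

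Srsf2, known for binding exonic enhancers, was the other abundant SR gene by mean FPKM. Its levels were 54.3 scaled FPKM at E18.5, 53.2 at PN2, 40.5 and 43.1 at PN14, 39.9 at PN28 and 42.8 in adult muscle. Both early libraries lay above all later ones, yet no fold change passed (-0.35, SE 0.18, adjusted p = 0.192 from PN2 to PN14, edgeR). Annotated exons of Srsf2 overlap those of Mfsd11 on the opposite strand over 9.9% of their bases, and the library kit was not stated to keep strand.

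Srsf12 was at the edge of detection. It had 206 counts at E18.5, 55 at PN2, 4 and 9 at PN14, 0 at PN28 and 2 in adult muscle. The E18.5 level was 45.8 times the adult one, with a 95% interval of 12.5 to 380 that covers counting error only. The fall from PN2 to PN14 passed (log2 fold change -2.26, SE 0.56, adjusted p = 0.0316, edgeR) but not with DESeq2's Wald test (adjusted p = 0.294).

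The other 5 SR genes had log2 fold changes from E18.5 to adult between -0.96 for Srsf6 and -0.36 for Srsf4. Srsf1, the founding SR protein, and Srsf6 fell, with adjusted p = 0.017 and 0.0151 (edgeR). The test was missed by Srsf10, at -0.61, and by Srsf11, at -0.58 (adjusted p = 0.0619 and 0.0572, edgeR). SR genes summed to 355 scaled FPKM at E18.5, 332 at PN2, 272 and 294 at PN14, 234 at PN28 and 238 in adult muscle.

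Hnrnpa1, which encodes a widely studied antagonist of SR proteins, had the largest fall of the hnRNP genes from E18.5 to adult. Its levels were 78.6 scaled FPKM at E18.5, 72.4 at PN2, 38.2 and 48.5 at PN14, 37.3 at PN28 and 24.7 in adult muscle. No later library reached the early ones, and the adult library was the lowest. The log2 fold change was -0.73 (SE 0.22, adjusted p = 0.0491) from PN2 to PN14 and -1.62 (SE 0.26, adjusted p = 0.00436) from E18.5 to adult, by edgeR's quasi-likelihood test. Hnrnpa1 lies on chromosome 15 of mm9 from 103070945 to 103074445, and as it has many processed pseudogenes, its count is uncertain to the extent that reads were split with them.

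Its relative Hnrnpa2b1 was the most abundant hnRNP gene. It had 183 scaled FPKM at E18.5, 169 at PN2, 194 and 169 at PN14, 199 at PN28 and 196 in adult muscle. The groups overlapped, and the log2 fold change was 0.16 from PN2 to PN14 (SE 0.32, adjusted p = 0.726, edgeR). With library size alone it fell from E18.5 to adult (-1.03, adjusted p = 0.012, edgeR), close to the shift of all genes in that scaling. The FPKM ratio of Hnrnpa2b1 to Hnrnpa1 was 2.33 at E18.5, 2.33 at PN2, 5.07 and 3.48 at PN14, 5.34 at PN28 and 7.92 in adult muscle. Hnrnpa2b1 alone accounted for 15.7% of the summed hnRNP FPKM at E18.5 and 23% in the adult.

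Hnrnpa0, a single-exon relative, followed Hnrnpa1. Its levels ran from 50.5 scaled FPKM at E18.5 to 18.2 in the adult, with 28.5 and 37.6 at PN14, and its log2 fold change over the whole course was -1.47 (SE 0.28, adjusted p = 0.00704, edgeR). Hnrnpa3 also fell from E18.5 to adult (-0.79, SE 0.25, adjusted p = 0.0394, edgeR), so the A/B genes split into 3 that fell and 1, Hnrnpa2b1, that did not pass. Hnrnpab, named alike but closer to Hnrnpd, had -0.39 and did not pass (adjusted p = 0.245, edgeR).

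Hnrnpd, which encodes the AU-rich element binding protein AUF1, had the largest fall among hnRNP genes from PN2 to PN14. It had 13.7 scaled FPKM at E18.5, 13.6 at PN2, 7.56 and 8.23 at PN14, 7.21 at PN28 and 9.85 in adult muscle. The adult library stood above the PN14 and PN28 libraries, and the fold change from PN28 to adult did not pass the test. The log2 fold change from PN2 to PN14 was -0.79 (SE 0.18, adjusted p = 0.0237, edgeR), while that from E18.5 to adult was -0.47 (SE 0.21, adjusted p = 0.106, edgeR).

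Hnrpdl, its nearest paralog, had 31.6 scaled FPKM at E18.5, 29.5 at PN2, 32.2 and 28.6 at PN14, 31.4 at PN28 and 38.7 in adult muscle. These libraries overlapped across the stages, and the log2 fold change from PN2 to PN14 was 0.04 (SE 0.19, adjusted p = 0.875, edgeR). The ratio of Hnrpdl to Hnrnpd FPKM was 2.32 at E18.5, 2.16 at PN2, 4.26 and 3.48 at PN14, 4.35 at PN28 and 3.93 in adult muscle. Mutations of the human counterpart of Hnrpdl cause a limb-girdle muscular dystrophy.

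Hnrnpr, a paralog of Syncrip, was a low but steady member of the falling genes. Its levels were 8.55 scaled FPKM at E18.5, 8.26 at PN2, 4.59 and 5.25 at PN14, 4.71 at PN28 and 4.41 in adult muscle. All later libraries lay well under the early ones, with log2 fold changes of -0.75 (SE 0.18, adjusted p = 0.0279) from PN2 to PN14 and -0.95 (SE 0.21, adjusted p = 0.0125) from E18.5 to adult, by edgeR's quasi-likelihood test.

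Hnrnpu, a nuclear matrix protein that binds chromatin and RNA, had 78.9 scaled FPKM at E18.5, 81.2 at PN2, 48.7 and 56.8 at PN14, 43.1 at PN28 and 50.2 in adult muscle. The early libraries lay above the later ones without overlap, but the log2 fold change of -0.62 from PN2 to PN14 did not pass (SE 0.25, adjusted p = 0.104, edgeR). Hnrnpk, which binds C-rich RNA and DNA, had 152 at E18.5, 142 at PN2, 101 and 114 at PN14, 97.3 at PN28 and 96.4 in adult muscle. It showed the same separation and likewise did not pass (-0.40 from PN2 to PN14, SE 0.25, adjusted p = 0.25, edgeR).

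Hnrnph2, an X-linked member of the H/F group that binds G-rich RNA, had 24.8 scaled FPKM at E18.5, 23.9 at PN2, 27.4 and 25.3 at PN14, 27.8 at PN28 and 26.9 in adult muscle. Its later libraries were all slightly above the early ones, and the log2 fold change from PN2 to PN14 was 0.14 (SE 0.18, adjusted p = 0.574, edgeR). The other H/F genes did not share this: Hnrnpf fell from E18.5 to adult (-0.91, SE 0.27, adjusted p = 0.0341, edgeR), and Hnrnph1 had -0.43 without passing (adjusted p = 0.17, edgeR). Of the remaining hnRNP genes, Hnrnpc and Hnrnpl fell from E18.5 to adult, with log2 fold changes of -0.87 and -0.88 (adjusted p = 0.0227 and 0.0228, edgeR). The others lay between -0.30 for Hnrpll and 0.12 for Hnrnpul2. Among these, Hnrnph3 shares 75.5% of its annotated exonic bases with Rufy2 on the opposite strand. Rufy2 had 974 to 3133 counts per library, against 1864 to 5117 for Hnrnph3. How reads were divided between Hnrnph3 and Rufy2 was not tested.

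Hnrnpc, which encodes a nuclear protein that packages nascent transcripts and competes with U2AF at some 3′ splice sites, had 51.1 scaled FPKM at E18.5, 32.8 at PN2, 28.9 and 32.9 at PN14, 27.7 at PN28 and 28 in adult muscle. The E18.5 library stood above the others, which overlapped, and the fold change from E18.5 to PN2 did not pass the test (-0.64, SE 0.23, adjusted p = 0.663, edgeR). Together the hnRNP genes summed to 1167 scaled FPKM at E18.5, 1076 at PN2, 857 and 902 at PN14, 843 at PN28 and 849 in adult muscle.

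U2af1l4 was the member with the largest rise. It encodes U2AF26, a paralog of the small U2AF subunit that can take the place of U2AF35, the product of U2af1, in the U2AF heterodimer. U2af1l4 had 15.7 scaled FPKM at E18.5, 17.2 at PN2, 37.1 and 32.3 at PN14, 39.3 at PN28 and 36.7 in adult muscle. All later libraries lay above both early ones, and the step fell between PN2 and PN14, with a log2 fold change of 1.01 (SE 0.19, adjusted p = 0.0145). From E18.5 to adult the log2 fold change was 1.23 (SE 0.21, adjusted p = 0.00528), both by edgeR's quasi-likelihood test.

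U2af1 itself had 49.2 scaled FPKM at E18.5, 48.9 at PN2, 41.4 and 43.6 at PN14, 40.8 at PN28 and 39.1 in adult muscle. Its later libraries were lower than the early ones, but the log2 fold change of -0.20 from PN2 to PN14 did not pass (SE 0.17, adjusted p = 0.387, edgeR). Of the summed FPKM of the U2af1 and U2af1l4 genes, U2af1l4 made up 24.2% at E18.5, 26% at PN2, 47.3% and 42.6% at PN14, 49% at PN28 and 48.4% in adult muscle. This share does not depend on the scaling between libraries, and the gap between PN2 and either PN14 library was larger than that between the PN14 replicates.

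U2af1l4 lies on chromosome 7 of mm9 from 31348320 to 31352979, on the plus strand. In GENCODE M1, 41.7% of its exonic bases are shared with other genes, of which most belong to Tmem149 on the same strand. That gene, listed in the table as Igflr1, had between 247 and 483 counts per library, against 2912 to 3963 for U2af1l4. How reads were divided between these genes was not tested.

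**Figure D3:**
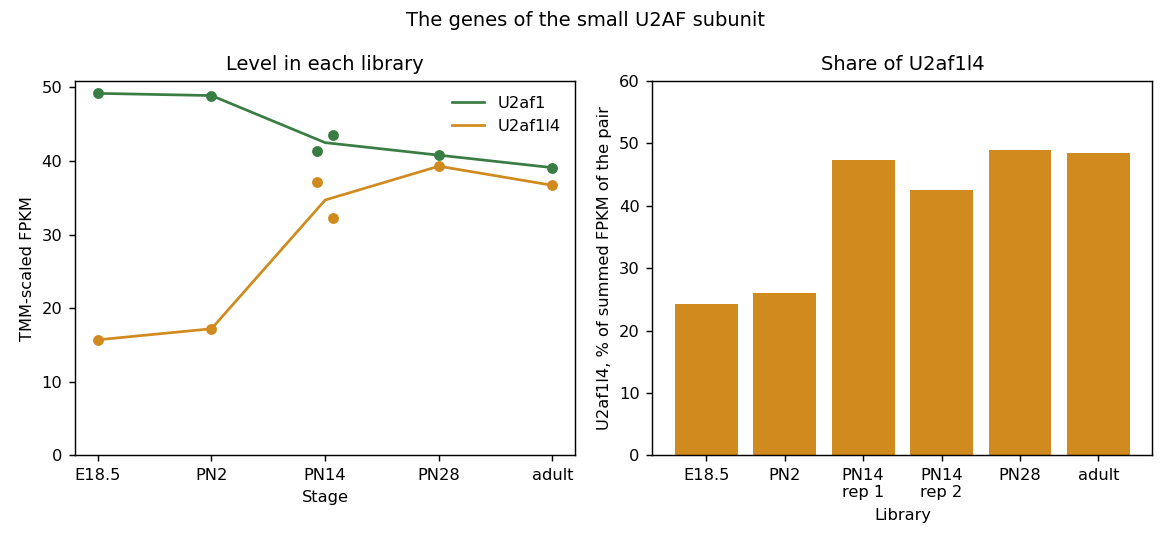
On the left, scaled FPKM of U2af1 and U2af1l4 by stage, with a point per library and the line through the mean at PN14; on the right, the share of U2af1l4 in the summed FPKM of both genes in each library. The U2af1l4 points rise from 17.2 at PN2 to 37.1 and 32.3 at PN14, and the share goes from 26% to 47.3% and 42.6%.

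U2af2, the gene of the large U2AF subunit, which contacts the polypyrimidine tract, had 53.7 scaled FPKM at E18.5, 47.4 at PN2, 34.3 and 39.4 at PN14, 34.4 at PN28 and 33.8 in adult muscle. The early libraries lay above the later ones, and neither the change from PN2 to PN14 (log2 fold change -0.36, SE 0.19, adjusted p = 0.2, edgeR) nor that from E18.5 to adult (-0.67, SE 0.23, adjusted p = 0.0506, edgeR) passed.

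Within the SF3A complex, Sf3a3 and Sf3a1 behaved alike and Sf3a2 apart. Sf3a3 had 21.1 scaled FPKM at E18.5, 20.7 at PN2, 13.5 and 14.2 at PN14, 12.8 at PN28 and 10.9 in adult muscle. It fell from PN2 to PN14 (log2 fold change -0.58, SE 0.16, adjusted p = 0.0442, edgeR) and from E18.5 to adult (-0.94, SE 0.19, adjusted p = 0.00949, edgeR). Sf3a1 had 14.8 at E18.5, 14.2 at PN2, 9.14 and 9.97 at PN14, 9.17 at PN28 and 7.54 in adult muscle, and it passed from E18.5 to adult (-0.98, SE 0.21, adjusted p = 0.0103, edgeR) but just missed from PN2 to PN14 (-0.57, SE 0.17, adjusted p = 0.0519, edgeR). Sf3a2 had 16 at E18.5, 14.7 at PN2, 14.7 and 14.9 at PN14, 16.3 at PN28 and 18.2 in adult muscle. Its libraries overlapped, with a log2 fold change of 0.02 from PN2 to PN14 (SE 0.17, adjusted p = 0.944, edgeR).

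The Sf3b genes among the members were split in the same manner. Sf3b4 had 17.0 scaled FPKM at E18.5, 16.2 at PN2, 9.58 and 10.7 at PN14, 8.89 at PN28 and 8.93 in adult muscle. It fell from PN2 to PN14 (log2 fold change -0.67, SE 0.17, adjusted p = 0.0342, edgeR), and its 4 later libraries lay between 8.89 and 10.7. Sf3b3 had 23.0 at E18.5, 19.1 at PN2, 13.3 and 15.7 at PN14, 12.3 at PN28 and 8.91 in adult muscle, with the adult library the lowest, and it passed from E18.5 to adult (-1.37, SE 0.23, adjusted p = 0.00487, edgeR). Sf3b5, a small subunit encoded by a gene of a single exon, had 28.7 at E18.5, 23.7 at PN2, 24.8 and 23.7 at PN14, 28.5 at PN28 and 31.7 in adult muscle, with no separation of early from late libraries (0.03 from PN2 to PN14, SE 0.17, adjusted p = 0.894, edgeR). Sf3b1, the branch-point clamp that is mutated in human leukaemias, and Sf3b2 were the steadiest, with log2 fold changes of -0.07 and -0.13 from E18.5 to adult. All 11 U2 factors summed to 305 scaled FPKM at E18.5, 285 at PN2, 259 and 265 at PN14, 263 at PN28 and 257 in adult muscle.

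The Sm proteins B, D1, D2, D3, E, F and G assemble in equal numbers into the Sm ring, yet the levels of their mRNAs drew apart. Snrpd1 had 41.8 scaled FPKM at E18.5, 33.9 at PN2, 17.7 and 22.5 at PN14, 17.0 at PN28 and 13.3 in adult muscle. All later libraries lay below the early ones, and it fell from PN2 to PN14 (log2 fold change -0.75, SE 0.20, adjusted p = 0.0388) and from E18.5 to adult (-1.65, SE 0.25, adjusted p = 0.0035), both by edgeR's quasi-likelihood test. Snrpd3, whose protein sits beside SmB in the ring, had 65.1 at E18.5, 58.1 at PN2, 94.8 and 107 at PN14, 84.7 at PN28 and 79.4 in adult muscle. Its highest values were those at PN14, and it rose from PN2 to PN14 (0.80, SE 0.19, adjusted p = 0.0261, edgeR). With library size alone this change was 0.15 and did not pass (adjusted p = 0.739, edgeR). The change from E18.5 to adult did not pass (0.29, SE 0.21, adjusted p = 0.277, edgeR) and was -0.74 with library size alone.

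The ratio of Snrpd3 to Snrpd1 FPKM was 1.56 at E18.5, 1.71 at PN2, 5.35 and 4.74 at PN14, 4.98 at PN28 and 5.95 in adult muscle. It is independent of scaling, and both PN14 values lay far from the PN2 value relative to the gap between them. Snrpd3 lies on chromosome 10 of mm9 from 74980787 to 74998185 and shares 0 exonic bases with other annotated genes.

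Snrpg, whose promoter is printed above, had 107 scaled FPKM at E18.5, 88.7 at PN2, 50.2 and 61.0 at PN14, 47.6 at PN28 and 40.4 in adult muscle. It went from the second most abundant Sm ring gene at E18.5 to the fifth in the adult. Its fall passed from PN2 to PN14 (log2 fold change -0.67, SE 0.19, adjusted p = 0.0426) and from E18.5 to adult (-1.41, SE 0.23, adjusted p = 0.00436), both by edgeR's quasi-likelihood test. Like other short Sm genes it has processed copies elsewhere in the genome, which makes its count uncertain.

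Snrpb, which encodes SmB and SmB′ and controls its own exon inclusion, had 96.4 scaled FPKM at E18.5, 94.0 at PN2, 119 and 117 at PN14, 122 at PN28 and 130 in adult muscle. Its later libraries were all above the early ones, without passing the test (log2 fold change 0.33 from PN2 to PN14, SE 0.20, adjusted p = 0.256, edgeR). Snrpd2 had 136 at E18.5, 111 at PN2, 130 and 128 at PN14, 132 at PN28 and 117 in adult muscle, with early and late libraries overlapping (0.22 from PN2 to PN14, SE 0.17, adjusted p = 0.358, edgeR). Snrpf fell from E18.5 to adult, from 38.6 to 20 scaled FPKM (log2 fold change -0.95, SE 0.24, adjusted p = 0.0183, edgeR), and Snrpe went from 67.9 to 44.2 without passing (-0.62, SE 0.23, adjusted p = 0.0623, edgeR). Exons of Ccdc38 and of a noncoding gene on the opposite strand cover 85.4% of the annotated exonic bases of Snrpf. Ccdc38 had at most 61 counts in any library, against at least 1545 for Snrpf. How reads were divided between Snrpf and the overlapping genes was not tested.

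**Figure D4:**
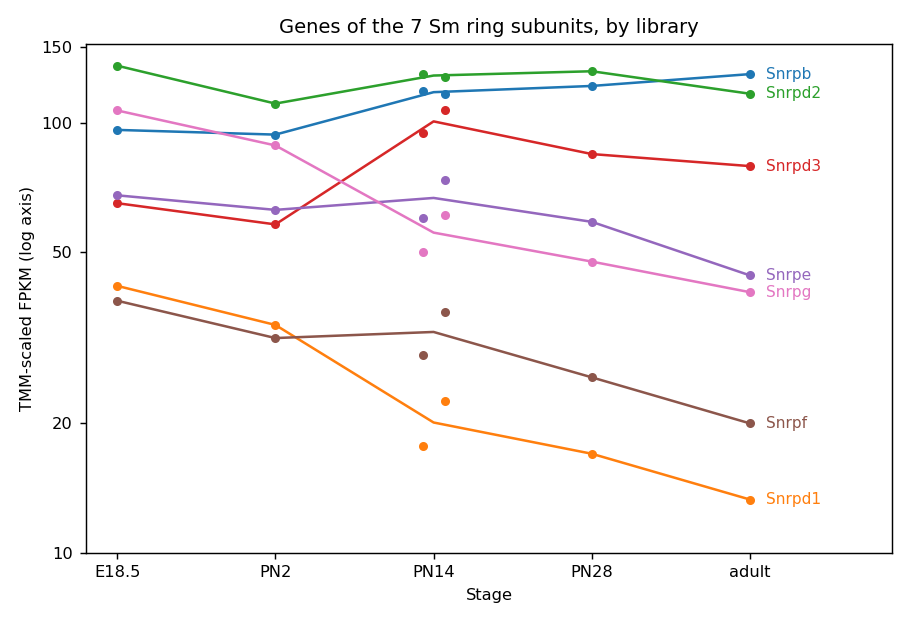
Scaled FPKM (log axis) of the genes of the Sm ring subunits B, D1, D2, D3, E, F and G over the 5 stages, with a point per library and lines through the mean at PN14. The genes span from 38.6 to 136 at E18.5 and from 13.3 to 130 in the adult, with Snrpd1 and Snrpg falling and Snrpd3 rising between PN2 and PN14.

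Across the ring, the highest FPKM was 3.53 times the lowest at E18.5 and 3.5 times at PN2. It was 7.33 and 5.72 times the lowest at PN14, 7.78 at PN28 and 9.73 in adult muscle. Snrpd2 was the highest in all libraries other than the adult, where Snrpb was, and Snrpf the lowest at E18.5 and PN2, with Snrpd1 the lowest from PN14 on.

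The other 4 genes of this subgroup, Snrpa, Snrpa1, Snrpb2 and Snrpc, encode proteins of the U1 or U2 snRNP, and none of them passed from PN2 to PN14 or from E18.5 to adult. Snrpc, the U1 snRNP protein that helps U1 bind the 5′ splice site, had 43.3 scaled FPKM at E18.5, 39.1 at PN2, 56.6 and 55.5 at PN14, 55.0 at PN28 and 51.0 in adult muscle. Its later libraries lay above the early ones, and the log2 fold change of 0.52 from PN2 to PN14 did not pass (SE 0.17, adjusted p = 0.064, edgeR). Snrpa1, a U2 snRNP protein, had 13.6 at E18.5, 12.5 at PN2, 11 and 11.7 at PN14, 12.1 at PN28 and 10.3 in adult muscle. Its change was small (-0.14 from PN2 to PN14, SE 0.18, adjusted p = 0.573, edgeR), as was that of its partner Snrpb2 (0.08, SE 0.17, adjusted p = 0.758, edgeR). Snrpa, of the U1 snRNP, had 0.03 over the same interval (SE 0.17, adjusted p = 0.9, edgeR).

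Other genes of the splicing machinery, taken from 6 lists, are given beside the same shares of all genes tested, of which 27.4% rose and 27.4% fell from E18.5 to adult and 16.6% rose and 15% fell from PN2 to PN14. Of 22 hnRNP-like genes under other names, 9 fell (40.9%) and 1 rose (4.55%) from E18.5 to adult, with a median log2 fold change of -0.56. Ptbp1, the gene of the polypyrimidine tract binding protein that represses many muscle and neuronal exons, had 47.4 scaled FPKM at E18.5, 40.8 at PN2, 17.1 and 22.7 at PN14, 15.4 at PN28 and 9.01 in adult muscle. Each later library was below both early ones, and its log2 fold change from E18.5 to adult was below that of every hnRNP member (-2.39, SE 0.28, adjusted p = 0.00195, edgeR). From PN2 to PN14, 5 of the 22 fell (22.7%) and 0 rose. The gene that rose from E18.5 to adult was Cirbp, a cold-inducible RNA-binding protein (1.14, SE 0.20, adjusted p = 0.00523, edgeR). Its course was not a steady rise, with 16.6 scaled FPKM at E18.5, 49.8 at PN2, 24.8 and 25.8 at PN14, 22.2 at PN28 and 36.7 in adult muscle. Cirbp was also among the 5 that fell from PN2 to PN14 (-0.98, SE 0.16, adjusted p = 0.0113, edgeR).

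The next list holds 41 genes of tri-snRNP, Prp and other splicing proteins, the last including Aqr, Phf5a, Puf60, Rbm17, Sf1, Zrsr1 and Zrsr2. From E18.5 to adult, 13 of the 41 rose (31.7%) and 5 fell (12.2%), with a median log2 fold change of 0.31. The share that rose was near that of all genes. The largest changes that passed were those of Zrsr1 (2.75), Ddx23 (1.31) and Cwc15 (1.3) upwards and of Aqr (-1.02), Sart3 (-0.85) and Ppih (-0.79) downwards. Zrsr1, a relative of U2AF35, had 1.18 scaled FPKM at E18.5, 1.54 at PN2, 3.01 and 2.37 at PN14, 3.54 at PN28 and 7.96 in adult muscle. From PN2 to PN14, 3 of the 41 rose (Zrsr1, Phf5a and Prpf4, 7.32%) and 1 fell (Aqr, 2.44%), both below the shares of all genes.

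Among 9 kinases of SR proteins and related kinases, 3 rose (33.3%, near the share of all genes) and 0 fell from E18.5 to adult, with a median log2 fold change of 0.49. Clk4, which phosphorylates SR proteins in the nucleus, had 8.47 scaled FPKM at E18.5, 8.32 at PN2, 15.3 and 13.6 at PN14, 13.9 at PN28 and 26.4 in adult muscle, and it rose from PN2 to PN14 (0.80, SE 0.18, adjusted p = 0.0243, edgeR). SR-related proteins (21 genes) had a median of 0.03, with 4 falling (19%) and 0 rising.

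The LSm genes (6 of 7 in the table), whose proteins form the ring on U6 RNA, had a median of -0.50 from E18.5 to adult, with 1 rising (Lsm4) and 1 falling. Of 12 genes for the SMN complex and Sm assembly, which load the Sm ring onto snRNA, 2 rose and 1 fell, with a median of 0.21. Gemin7 rose most, with 22.6 scaled FPKM at E18.5, 22.1 at PN2, 46.5 and 41.3 at PN14, 50.5 at PN28 and 61.5 in adult muscle (log2 fold change from PN2 to PN14 0.99, SE 0.18, adjusted p = 0.0144, edgeR). Its early and late libraries did not overlap. The shift of all genes with library size alone, given above, applies to these lists as well.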

How the data were processed

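PolyA RNA of 6 libraries was sequenced as paired ends. The authors used TopHat2 (2.0.5) for alignment, mm9 as the genome and RSEM for counting over RefSeq genes, as the submitters' processing notes and the study's methods say; the RSEM version is not given in the sources used here. The deposited expected counts are not normalized, and the deposited FPKM values are scaled by the authors to gene length and library size alone.

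Expected counts were rounded and fitted with edgeR 4.0.16 in R 4.3.3 (TMM, filterByExpr by stage, quasi-likelihood test in its legacy form, all 6 libraries, 5 stages, 16882 genes). The fit had 1 residual degree of freedom and a common biological coefficient of variation of 0.188. An SE is the fold change divided by the square root of its F statistic. A scaled FPKM is the deposited FPKM divided by the TMM factor. Each named column was matched to its library by the number in the sample description, and the replicates are 2 mice at PN14.

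Values in every library are given, per subgroup, for up to 4 genes each with the largest fall and the largest rise from PN2 to PN14 and the 2 with the highest mean FPKM; Srsf1, Srsf6, Hnrnpa0, Hnrnpc and others were added after their values were seen. Up to 3 passing genes a direction are named from the 6 splicing lists. The members and lists were chosen with earlier results of these data known. Gene coordinates come from GENCODE M1 on mm9, and promoters from RefSeq. The fitting script was run on simulated counts with known changes. Alternatives used DESeq2 1.42.0, edgeR's exact test, other scalings and filters, and 1 PN14 library. Tables were made with Python 3.11.15, and the splicing values of the study were not analysed here.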

Additional observations from a re-analysis of the deposited data

How the results depend on the processing

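From PN2 to PN14, where 10 members passed, 2 passed when at least a 2-fold change was required as well, 32 with library size alone, 5 with DESeq2's Wald test and 6 with the newer form of edgeR's quasi-likelihood fit, an alternative chosen after the data were seen. From E18.5 to adult, where 21 passed, 9 passed with the 2-fold requirement and 46 with library size alone. Of all genes tested, 11.8% rose and 11.2% fell from PN2 to PN14 with the 2-fold requirement. From E18.5 to adult, 21.4% rose and 23.6% fell with it. From PN2 to PN14, 15% rose and 10.8% fell with DESeq2's Wald test, and 15.5% and 14.1% with the newer form. The shares of all genes with library size alone are given above. Under the other alternatives both counts of members stayed within 1.5 times. The 3 other intervals had 0 members under each alternative run, where at most 1.86% of all genes rose and at most 5.43% fell. The distance of a subgroup's median from the median of all genes tested moved under a filter on a mean of 1 CPM: to -0.24 for the U2 factors from PN2 to PN14 (main value -0.19), and from E18.5 to adult to -0.54 for the hnRNP genes (-0.39), -0.43 for the U2 factors (-0.28) and -0.43 for the Sm and snRNP genes (-0.28), because fewer genes were tested. With either PN14 library left out, these distances from PN2 to PN14 ranged from -0.35 to -0.25 for the SR genes, -0.40 to -0.26 for the hnRNP genes, -0.20 to -0.16 for the U2 factors and 0.07 to 0.21 for the Sm and snRNP genes. That of the Sm and snRNP genes, 0.09 with both libraries, was 0.21 without replicate 1. Such fits have no residual degrees of freedom, so they give values and no test. No gene that passed in the main fit had its direction reversed in that comparison. Some genes that passed with library size alone did change direction, such as Srsf5 from E18.5 to adult (0.09 with TMM, -0.93 with library size alone). No paired analysis was possible because only PN14 has more than 1 library. Depth limits only Srsf12, which had between 0 and 206 counts, and its intervals cover counting error alone.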

Other observations

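Snrpn, left out of the members by the rule, encodes SmN, a close relative of SmB that is known to replace it in snRNPs of brain and other tissues. It had 4.19 scaled FPKM at E18.5, 3.73 at PN2, 14.7 and 9.49 at PN14, 16.2 at PN28 and 22.1 in adult muscle. Of the summed FPKM of Snrpb and Snrpn, Snrpn made up 4.16% at E18.5, 3.82% at PN2, 11% and 7.49% at PN14, 11.7% at PN28 and 14.6% in adult muscle. The PN14 replicates differed in this share by nearly as much as replicate 2 differed from PN2.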
